A study of Rattus norvegicus with 22 samples.

Results

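The genes described here encode integrins, the laminin chains they bind, and the nidogens and agrin that sit beside laminins in basement membranes. They were found in the count table by their symbols, from the naming of integrin alpha and beta subunits, of laminin alpha, beta and gamma chains, and of the nidogens and proteoglycans Nid1, Nid2, Hspg2 and Agrn. This gave 38 of the 32883 genes in the count table, namely 17 integrin alpha subunits, 8 integrin beta subunits, 10 laminin chains and 3 nidogens and agrin. The symbols Itgam and Hspg2 were not analysed here, although 1 gene that RefSeq lists under the name Hspg2 is described separately.

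RNA was sequenced from ventral cervical spinal cord (C3-C6, the dorsal part discarded) of Sprague-Dawley rats aged 3 to 4 months, with 1 library per rat. The groups were 5 intact males, 5 males whose testes had been removed (GDX), 6 intact females and 6 females whose ovaries had been removed (OVX). Tissue was taken 2 weeks after surgery, the intact controls were matched for age, all rats were perfused with saline, and no sham surgery was described for the controls. The comparisons ask how removal of the gonads changed RNA levels in this tissue in each sex.

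The total count per library lay between 12371756 and 17571887 reads. Its median was 14196615 for intact and 15645521 for GDX males, and 14640726 for intact and 14766802.5 for OVX females. The methods list an average input fragment size that falls into a shorter class of 15 libraries and a longer class of 7. All 5 GDX and all 6 OVX libraries were in the shorter class, with 2 intact males (rats 2 and 5) and 2 intact females (rats 1 and 4), so the longer class held intact rats alone. A comparison of gonadectomized with intact rats within the longer class was therefore not possible.

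Laminins are trimers of an alpha, a beta and a gamma chain that assemble into sheets, and nidogens and the proteoglycans perlecan and agrin link these sheets to collagen IV. Integrins are pairs of an alpha and a beta subunit in the cell membrane that bind laminins, collagens or other matrix proteins and connect them to the cytoskeleton. In the spinal cord such basement membranes surround blood vessels and underlie the pia, where astrocyte endfeet attach, and each axon with its Schwann cell in the nerve roots is wrapped in one.

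Levels are given as CPM, a gene's count scaled to its library's size, with library sizes adjusted by TMM factors over all 22 rats. Differences are log2 fold changes from edgeR's quasi-likelihood test, in which p was adjusted over all genes tested and a gene was called at an adjusted p under 0.1. That test gives no standard error (SE), so the SE was derived as the absolute log2 fold change over the square root of the test's F. Of the 38 genes, 31 passed the filter on low counts in males and 32 in females. The others were low in all groups. Among them, Itgb6 had 0 to 6 counts per rat, Itgb7 0 to 10, Itgax 0 to 8, Itga2 0 to 13 and Itga10 1 to 23. Lamb3, with 2 to 25 counts, was tested in females and not in males. Gene lengths were not at hand, so levels are compared between rats and not between genes, and the most abundant gene of a list is the one with the highest mean CPM, without regard to length.

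The libraries carried the markers of their labelled tissue. The summed level of 9 motor neuron markers lay between 8103 and 15428 CPM per rat, with Nefm the most abundant, that of 9 oligodendrocyte markers between 22833 and 28712 CPM (Mbp), and that of 8 astrocyte markers between 5030.2 and 7294 CPM (Gfap). The 6 cervical Hox genes summed to between 31.1 and 48.3 CPM, with Hoxc4 the most abundant and Hoxa5 at 0 in all rats. The 15 blood leukocyte and platelet markers summed to between 1.06 and 12.2 CPM (S100a9), and Gp1bb had no count.

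In GDX males, 14 of the 31 genes tested rose and 2 fell, beside 13.4% of all 14931 genes called in either direction, 6.78% higher and 6.58% lower. The laminin chains rose together, with 8 of 8 chains tested called higher, at log2 fold changes between 0.25 and 0.89. With the fragment class as a term Lamc1 and Lamb1 were not called. In the shorter class alone Lama5, Lamb2 and Lama2 were not called either. Among the integrins 4 of 20 rose and 1 fell, and among the nidogens and agrin 2 rose and 1 fell. The median log2 fold change was 0.25 over the 31 genes and 0.0021 over all genes tested. Of these, 6 were called higher at an adjusted p under 0.01, against 1.13% of all genes. In 9 of the 31 all 5 GDX males lay above all 5 intact males, against 3.76% of all genes, and in 0 all GDX males lay below, against 3.41%. In bulk tissue fewer or more cells of a type cannot be told apart from less or more RNA per cell.

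The laminin alpha chains, which carry the sites that integrins bind, all rose. Lama4 (ENSRNOG00000000599), the alpha4 chain of vessel walls, was at 19.3, 21.2, 18.2, 17.1 and 18.9 CPM in intact male rats 1, 2, 3, 5 and 6, against 26.1, 29.4, 30.3, 40.5 and 32.2 CPM in GDX rats 1, 2, 4, 5 and 6. The groups did not overlap, and GDX rat 5 was highest. Its log2 fold change was 0.74 ± 0.10 (SE), and its adjusted p of 0.00303 was the smallest of the 31 genes. Lama1 (ENSRNOG00000017237), a chain of the pial basement membrane, was at 6.41, 7.31, 6.26, 5.51 and 4.86 CPM in the same intact males and at 9.05, 12.3, 10.5, 11.0 and 10.1 CPM in the GDX males. All GDX males lay above the highest intact male, rat 2, with a log2 fold change of 0.81 ± 0.12 and an adjusted p of 0.00472.

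Lama5 (ENSRNOG00000053691), the alpha5 chain found in endothelial and epithelial basement membranes, was at 7.75, 8.12, 7.39, 8.30 and 6.44 CPM in intact males and at 11.0, 11.1, 11.1, 10.4 and 11.2 CPM in GDX males. The GDX values were close together and above all intact ones, at a log2 fold change of 0.53 ± 0.09 (adjusted p of 0.00607). Lama2 (ENSRNOG00000011134), the alpha2 chain of muscle, nerve and brain vessels, whose loss causes a congenital muscular dystrophy, lay between 32.7 and 42.1 CPM in intact males and between 43.4 and 57.2 CPM in GDX males. Its log2 fold change was 0.35 ± 0.09 (adjusted p of 0.0248), again without overlap.

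The beta and gamma chains, which complete the trimers, also rose. Lamb2 (ENSRNOG00000047768), a beta chain of the neuromuscular junction and of vessels, was at 38.5, 39.3, 41.1, 47.7 and 34.8 CPM in intact males and at 55.3, 57.1, 56.9, 82.6 and 70.1 CPM in GDX males. The lowest GDX male was above the highest intact male, and GDX rats 5 and 6 stood above the other 3. The log2 fold change was 0.67 ± 0.11 (adjusted p of 0.00554). Lamc3 (ENSRNOG00000059507), a gamma chain of nerve, retina and other restricted sites, was at 4.65, 4.28, 4.68, 4.64 and 2.89 CPM in intact males and at 7.11, 7.65, 8.04, 8.94 and 7.50 CPM in GDX males. Intact rat 6 was low and the groups did not overlap, with a log2 fold change of 0.89 ± 0.14 (adjusted p of 0.00554) over all 10 males.

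Lamc1 (ENSRNOG00000002680), the gamma chain of most laminins, changed less, from between 81.0 and 95.3 CPM to between 96.7 and 120.1 CPM, with a log2 fold change of 0.25 ± 0.06 (adjusted p of 0.0226) and no overlap. With the fragment class as a term, Lamc1 was at 0.18 and not called (adjusted p of 0.235). Lamb1 (ENSRNOG00000005678), the other widespread beta chain, lay between 3.55 and 5.31 CPM in intact males and between 4.29 and 9.05 CPM in GDX males. GDX rat 1 lay among the intact males, and the log2 fold change was 0.67 ± 0.19 (adjusted p of 0.0396). Without GDX rat 4 the adjusted p of Lamb1 was 0.103 at a log2 fold change of 0.58, and with the class term it was 0.293 at 0.50.

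**Figure D1:**
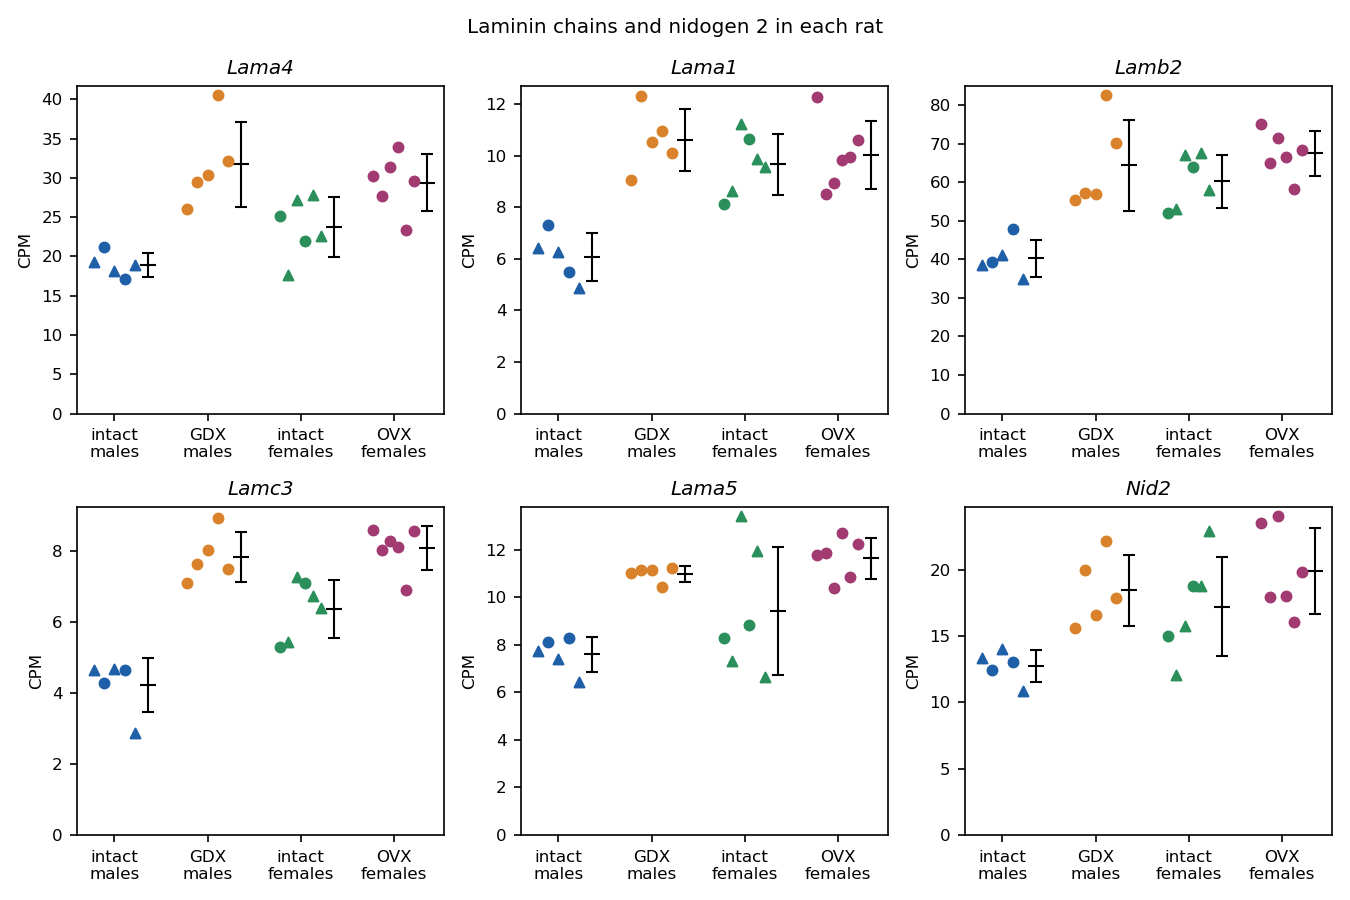
CPM of 5 laminin chains and Nid2 in each rat of the 4 groups, with circles for the shorter and triangles for the longer input fragment class and bars for the mean ± SD (n = 5 or 6). GDX males sit above intact males without overlap in each panel, while OVX and intact females overlap.

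Promoters of the laminin chains are shown because these genes rose together. RefSeq promoters, from 250 bases before to 50 after the gene start on build GRCr8, were matched for 28 of the 38 genes. The 4 below are those of the genes with the smallest p among the called genes with an entry, given 5′ to 3′ on the gene's strand, at chr20:43946648-43946947 (+) for Lama4, chr9:115139298-115139597 (+) for Lama1, chr3:35562739-35563038 (+) for Lamc3 and chr3:187695925-187696224 (-) for Lama5. Capitals mark matches on either strand to any of 5 short motifs, which may overlap.
Lama4: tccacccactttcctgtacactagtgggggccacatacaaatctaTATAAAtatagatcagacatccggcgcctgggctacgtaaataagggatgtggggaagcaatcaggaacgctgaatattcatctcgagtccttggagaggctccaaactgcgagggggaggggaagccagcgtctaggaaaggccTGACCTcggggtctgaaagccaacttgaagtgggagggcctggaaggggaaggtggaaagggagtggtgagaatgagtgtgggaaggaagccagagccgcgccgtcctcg
Lama1: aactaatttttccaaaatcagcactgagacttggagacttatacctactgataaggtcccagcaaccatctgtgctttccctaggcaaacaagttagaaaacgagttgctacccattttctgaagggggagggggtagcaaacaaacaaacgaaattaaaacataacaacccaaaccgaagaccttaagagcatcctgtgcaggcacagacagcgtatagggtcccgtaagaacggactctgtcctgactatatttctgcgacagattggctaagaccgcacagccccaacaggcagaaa
Lamc3: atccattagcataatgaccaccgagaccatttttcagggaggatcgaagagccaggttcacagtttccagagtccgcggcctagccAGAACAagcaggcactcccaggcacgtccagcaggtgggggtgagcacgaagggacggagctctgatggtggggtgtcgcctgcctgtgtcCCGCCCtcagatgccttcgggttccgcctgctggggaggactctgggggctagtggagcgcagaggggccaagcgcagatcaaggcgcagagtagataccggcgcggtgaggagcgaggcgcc
Lama5: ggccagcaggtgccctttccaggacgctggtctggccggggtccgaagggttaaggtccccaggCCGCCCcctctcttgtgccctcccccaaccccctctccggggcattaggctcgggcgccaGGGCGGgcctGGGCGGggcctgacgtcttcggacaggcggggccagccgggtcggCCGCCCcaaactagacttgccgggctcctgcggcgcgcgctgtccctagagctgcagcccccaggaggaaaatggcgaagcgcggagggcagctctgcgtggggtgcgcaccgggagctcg
TATAAA, the core letters of the TATA box, was in 14.3% of all 27457 promoters and in 2 of the 28, Lama4 among them. In Lama4 these letters lay near the upstream end of the window, far from the gene start. The GC box GGGCGG was in 34.9% of all promoters and in 15 of the 28, with 4 copies in Lama5 and 1 in Lamc3. AGAACA, the core letters of androgen and glucocorticoid receptor sites, was in 20.1% of all and in 5 of the 28, with 1 copy in Lamc3. AGGTCA, the core letters of estrogen and other nuclear receptor sites, was in 15.7% of all and in 2 of the 28, with 1 copy in Lama4. The AP-1 motif TGANTCA was in 7.33% of all and in 1 of the 28. Lama1 held none of these letters in this window. The share of G and C was 55.0% in Lama4, 45.7% in Lama1, 63.0% in Lamc3 and 73.0% in Lama5, beside a median of 52.3% over all promoters. A match is a description of the letters and not a site of binding.

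The 3 genes that link laminin sheets to other matrix split in direction. Nid2 (ENSRNOG00000000341), a nidogen that bridges laminin and collagen IV, was at 13.3, 12.5, 14.0, 13.1 and 10.8 CPM in intact males and at 15.6, 20.0, 16.6, 22.2 and 17.9 CPM in GDX males. No GDX male reached down to the intact range, and the log2 fold change was 0.53 ± 0.10 (adjusted p of 0.00848). Nid1 (ENSRNOG00000002461), the other nidogen, rose by 0.41 ± 0.11 (adjusted p of 0.0347), with GDX rat 1, at 60.1 CPM, among the intact males, and was not called with the class term (0.48, adjusted p of 0.11). Agrn (ENSRNOG00000020205), the proteoglycan that clusters acetylcholine receptors at the neuromuscular junction and is also part of vessel basement membranes, fell. It was at 120.1, 114, 107, 121 and 117 CPM in intact males and at 110.4, 107, 91.7, 95.5 and 86.6 CPM in GDX males, with 2 GDX males inside the intact range and a log2 fold change of -0.24 ± 0.06 (adjusted p of 0.0281). The call of Agrn was lost with the class term, at -0.26 (adjusted p of 0.109).

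Among the integrins the laminin receptors differed from each other. Itgb4 (ENSRNOG00000005580), which pairs with the alpha6 subunit in a laminin receptor of epithelia, perineurium and Schwann cells, was at 29.3, 21.7, 24.2, 17.5 and 11.0 CPM in intact males and at 27.7, 31.3, 51.1, 105 and 61.5 CPM in GDX males. The spread among GDX males was wide, rat 1 lay inside the intact range, and the log2 fold change of 1.42 ± 0.33 (adjusted p of 0.0167) was the highest of the 31 genes. With the class term Itgb4 was at 1.50 and not called (adjusted p of 0.105). Itga6 (ENSRNOG00000001518), the alpha subunit of that receptor and, with beta1, of another, was at 99.0, 106, 104, 112 and 115 CPM in intact males and at 128, 124, 121, 121 and 119 CPM in GDX males. Its shift was small and without overlap, at a log2 fold change of 0.19 ± 0.04 (adjusted p of 0.0169), and it was not called with the class term (0.17, adjusted p of 0.147).

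Itga3 (ENSRNOG00000004276), a laminin-binding alpha subunit, fell by 0.25 ± 0.07 on the log2 scale (adjusted p of 0.0391), from between 33.5 and 37.9 CPM to between 26.4 and 34.9 CPM. Without GDX rat 5 its adjusted p was 0.105. The remaining laminin-binding subunit, Itga7 of muscle, had a log2 fold change of -0.07 and was not called. Itgb1 (ENSRNOG00000010966), the beta subunit shared by most laminin and collagen receptors, rose by 0.23 ± 0.06 (adjusted p of 0.0292), from between 116 and 143 CPM to between 138 and 161 CPM. Itga1 (ENSRNOG00000053550), a collagen and laminin receptor subunit, rose by 0.41 ± 0.13 (adjusted p of 0.0592), with intact rat 2 inside the GDX range. The call of Itga1 was lost on leaving out GDX rat 2 or 6 or intact rat 1, 3 or 6 in turn, at adjusted p between 0.108 and 0.141, and also with all 22 rats fitted together (0.137). Its log2 fold change was 0.16 with the class term (adjusted p of 0.566), 0.16 in the shorter class alone (adjusted p of 0.583) and 0.17 with the level of endothelial markers as a term (adjusted p of 0.824).

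The other 15 integrins tested were not called. Itga11, a collagen-binding alpha subunit, had a log2 fold change of 0.52 (adjusted p of 0.275). The 4 alpha subunits that bind the RGD motif of fibronectin and vitronectin had log2 fold changes between -0.04 and 0.57, with Itga5 highest. The alpha4 and alpha9 subunits were at 0.49 and -0.12, and the 3 leukocyte subunits tested, Itgal, Itgad and Itgae, between -0.04 and 0.35. Reads of Itgad may be shared with close paralogs. Of these genes 3 passed with 1 rat left out, Itga4 without intact rat 3 (adjusted p of 0.0331), Itgad without GDX rat 2 (adjusted p of 0.0737) and Itgal without GDX rat 6 (adjusted p of 0.0652). The beta subunits Itgb2, Itgb3, Itgb5 and Itgb8 lay between -0.05 and 0.07.

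**Figure D2:**
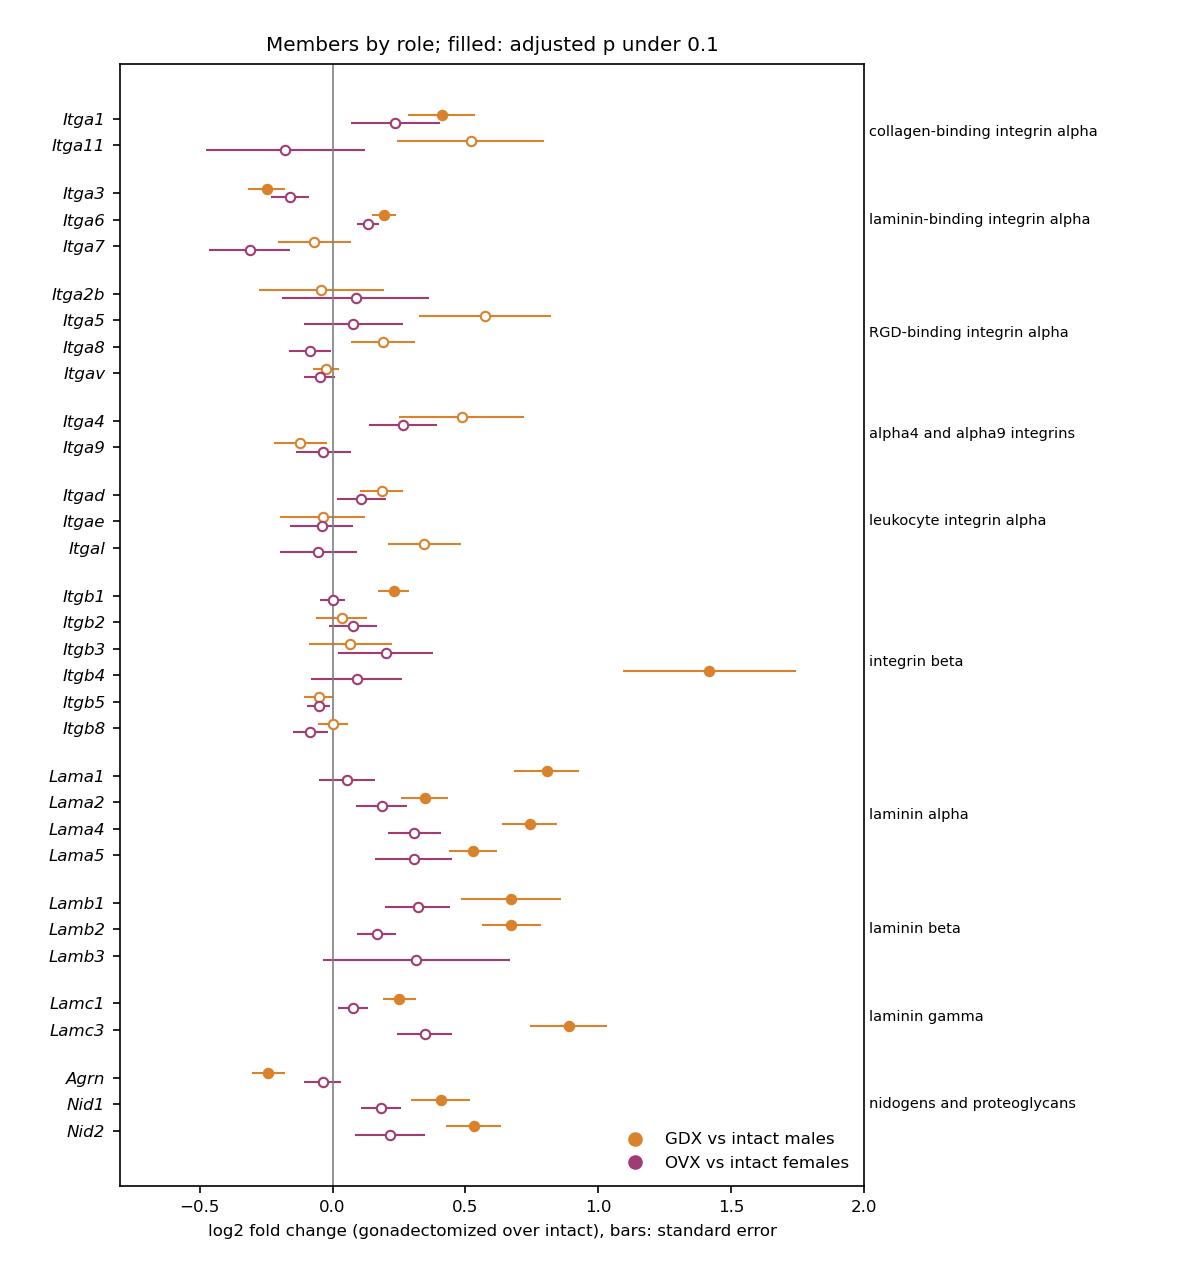
Log2 fold change ± SE of each gene tested, ordered by role, for GDX against intact males (orange) and OVX against intact females (purple), with filled points for an adjusted p under 0.1. The 8 laminin chains tested in males are all filled and between 0.25 and 0.89, and no female point is filled.

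The called genes moved beside markers of other cell types that basement membranes adjoin. All 16 meninges and fibroblast markers tested, of 17 in the table, were called higher in GDX males, with a median log2 fold change of 1.55. Their summed level was 224, 157, 159, 111 and 87.9 CPM in intact males and 219, 341, 483, 655 and 516 CPM in GDX males, with Col1a1 the most abundant and none at 0 throughout. GDX rat 1 alone lay inside the intact range, as it did for Lamb1, Nid1 and Itgb4. The mean log2 CPM of this list was 1.37 higher in GDX males (exact permutation test, two-sided p = 0.00794, adjusted p = 0.0317 over 12 lists, with a list called under 0.1). With 5 against 5 rats 0.00794 is the smallest p this exact test can give. It reflects list means that do not overlap, and not the size of the difference. The lists were chosen with earlier results of these data known, so these p values are not an independent test.

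Of 15 endothelial markers 11 were called higher, and their summed level was 208, 264, 237, 265 and 240.5 CPM in intact males and 349, 365, 329, 330.3 and 289 CPM in GDX males, with Abcb1a the most abundant and none at 0 throughout. The mean log2 CPM was 0.49 higher in GDX males (exact permutation p = 0.00794, adjusted p = 0.0317), without overlap of the sums. Pericyte and smooth muscle markers, of which 4 of 10 were called higher, were 0.34 higher (exact permutation p = 0.0476, adjusted p = 0.0816) and summed to between 119 and 203 CPM over all rats, with Myh11 the most abundant. Without GDX males 1, 2 or 4 or intact males 1, 3 or 6 the exact permutation p of the pericyte list was over 0.05, as it was with a prior count of 0.5 (0.39), and its difference in the shorter class alone was 0.13. Schwann cell markers, of which edgeR called 2 of 7 higher and DESeq2 0, were 0.72 higher (exact permutation p = 0.0873, adjusted p = 0.131) and summed to between 64.8 and 172 CPM (Drp2).

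Microglia and macrophage markers (2 of 13 called) were 0.27 higher in GDX males (exact permutation p = 0.0159, adjusted p = 0.0381), at sums between 319 and 432 CPM over all rats (Sall1). The blood leukocyte and platelet list was 0.69 higher (exact permutation p = 0.0159, adjusted p = 0.0381), with 0 of its 15 genes passing the filter, and was 1.08 higher with a prior count of 0.5. Astrocyte markers were 0.09 higher (exact permutation p = 0.00794, again the smallest possible, adjusted p = 0.0317). Of these markers 2 of 8 were called higher (Gfap and Aqp4), 1 was called lower (Fgfr3) and 3 were below 0. Oligodendrocyte markers were 0.07 higher (exact permutation p = 0.0397, adjusted p = 0.0794), with 2 of 9 called higher (Ermn and Mbp) and 3 below 0, and their exact permutation p was over 0.05 without GDX males 1, 4 or 5 or intact males 1, 2 or 3. Differences of the other lists in males did not pass, at -0.18 for motor neurons, 0.16 for dorsal horn neurons, 0.15 for ependymal cells (sums between 54.7 and 71.0 CPM, Dnah11) and -0.17 for Hox genes (exact permutation, adjusted p between 0.276 and 0.540). Of the single neuronal markers edgeR called 2 of 9 motor neuron markers lower, Slc18a3 (-0.43) and Nefh (-0.29), and 1 of 3 dorsal horn markers tested, Calb2 (-0.33, adjusted p of 0.00611). The dorsal horn list thus differed in sign between its mean over 5 genes and the median of the 3 tested (-0.15), of which 0 were above 0. Its sums, with Calb2 the most abundant, lay between 114 and 141 CPM in GDX males and between 157 and 178 CPM in intact males, without overlap. The part of these cell types in the results on integrins and laminins was not tested.

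With rats centred on their group mean, so that the difference between groups does not enter, 165 relations between a gene and a marker list were computed over the 22 rats, and 14 passed by Pearson's r at an adjusted p under 0.05, all 14 positive. Of these 8 were with the meninges list (Itgb4, Nid2, Lamc3, Nid1, Lamb2, Lama2, Itga11 and Itga5), 2 with the endothelial and 2 with the pericyte list (Itga6 and Agrn in both), 2 with the Schwann cell list (Itgb4 and Lama2) and 0 with the microglia list. Itgb4 followed the meninges list most closely (Pearson's r = 0.943, permutation p = 1e-05, the smallest that the permutations can give, adjusted p = 0.00165; Spearman's rho = 0.929, permutation p = 1e-05). Without the 2 rats whose list level lay farthest from its group mean r was 0.933, and among the 15 libraries of the shorter class it was 0.958. Nid2 (r = 0.750, permutation p = 0.00032, adjusted p = 0.0088; rho = 0.795, permutation p = 9e-05) and Lamc3 (r = 0.719, permutation p = 0.00015, adjusted p = 0.00825; rho = 0.694, permutation p = 0.00188) also followed it. Without the 2 farthest rats their r was 0.641 and 0.657, and within the shorter class 0.724 and 0.778.

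Itga6 instead followed the endothelial list (r = 0.748, permutation p = 0.00022, adjusted p = 0.0088; rho = 0.706, permutation p = 0.00136), with r = 0.598 without the 2 farthest rats and 0.706 within the shorter class. Agrn, lower in GDX males, varied within groups in the same direction as this list (r = 0.668, permutation p = 0.00014, adjusted p = 0.00825; rho = 0.698, permutation p = 0.00047), at r = 0.667 without the 2 farthest rats and 0.763 within the shorter class. Over the 33 genes in each family the median r was 0.25 for the meninges list, 0.0499 for the endothelial, 0.111 for the pericyte, 0.232 for the Schwann cell and 0.194 for the microglia list. By rho 12 relations passed, 11 of them among the 14. Lama2 and Lamb2 with the meninges list (adjusted p of rho 0.0781 and 0.0723) and Lama2 with the Schwann cell list (0.0723) passed by r alone, and Itga1 with the pericyte list (adjusted p of rho 0.0491, of r 0.0683) by rho alone. The adjusted p of rho for the 5 relations given in full lay between 0.00165 and 0.0388. The lists share no gene with the 38.

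**Figure D3:**
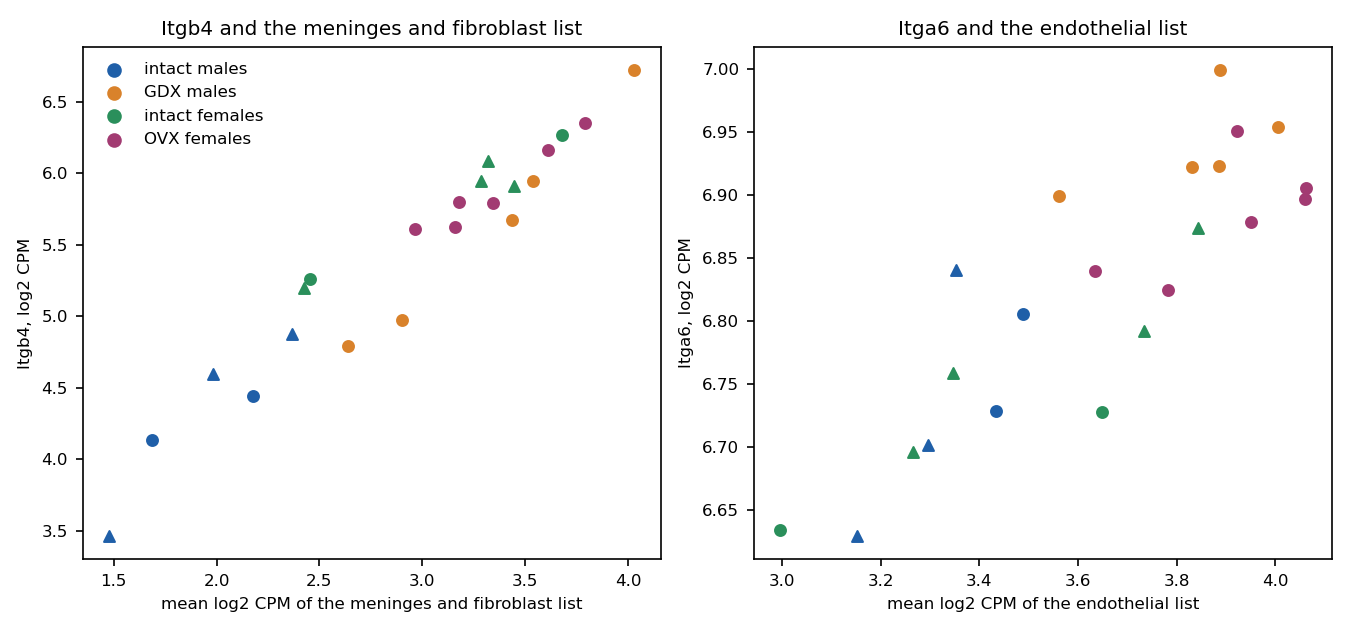
Log2 CPM of Itgb4 against the mean log2 CPM of meninges and fibroblast markers, and of Itga6 against that of the endothelial list, in 22 rats coloured by group, with triangles for the longer fragment class. Within groups r is 0.943 for Itgb4 and 0.748 for Itga6.

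With the fragment class as a term 9 of the 31 genes were called in males, beside 5.33% of all genes, and Itga6, Nid1, Lamc1, Itgb4, Lamb1, Agrn and Itga1 were not. In the shorter class alone, with 2 intact and 5 GDX males, 5 were called (Lama4, Lama1, Lamc3, Nid2 and Itgb1), beside 2.83% of all genes. There Lama5 (0.42), Lamb2 (0.56), Lama2 (0.40) and Itga3 (-0.31) were not called either, at adjusted p between 0.103 and 0.138. With the meninges list's level as a term 0 of the 31 were called and 1 of all genes, and Itgb4 (-0.64), Nid1 (-0.13) and Itga3 (0.031) changed sign. The laminin chains were lower there as well, with Lama2 at 0.0081, Lamc1 at 0.10, Lama4 and Lamb2 at 0.24, Lamb1 at 0.46, Lama5 at 0.47, Lamc3 at 0.49 and Lama1 at 0.54. With the endothelial list's level as a term, chosen after seeing the data, 0 were called and 35 of all genes. The signs of the 16 called genes were the same there, and their ratios to the log2 fold changes without the term lay between 0.351 (Itga6) and 1.92 (Agrn), with a median of 1.03. With the meninges term the ratios lay between -0.448 (Itgb4) and 1.64 (Itga6), with a median of 0.391. The levels of both lists differ between GDX and intact males, so neither term is free of the groups. With the rat number as a block 12 were called, beside 8.56% of all genes, and Nid1, Itga3, Lamb1 and Itga1 were not. Block fits keep only rats whose number occurs in both groups, so this one also lacked GDX rat 4 and intact rat 3. The part of the block and of the missing rats in these losses was not tested.

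**Figure D4:**
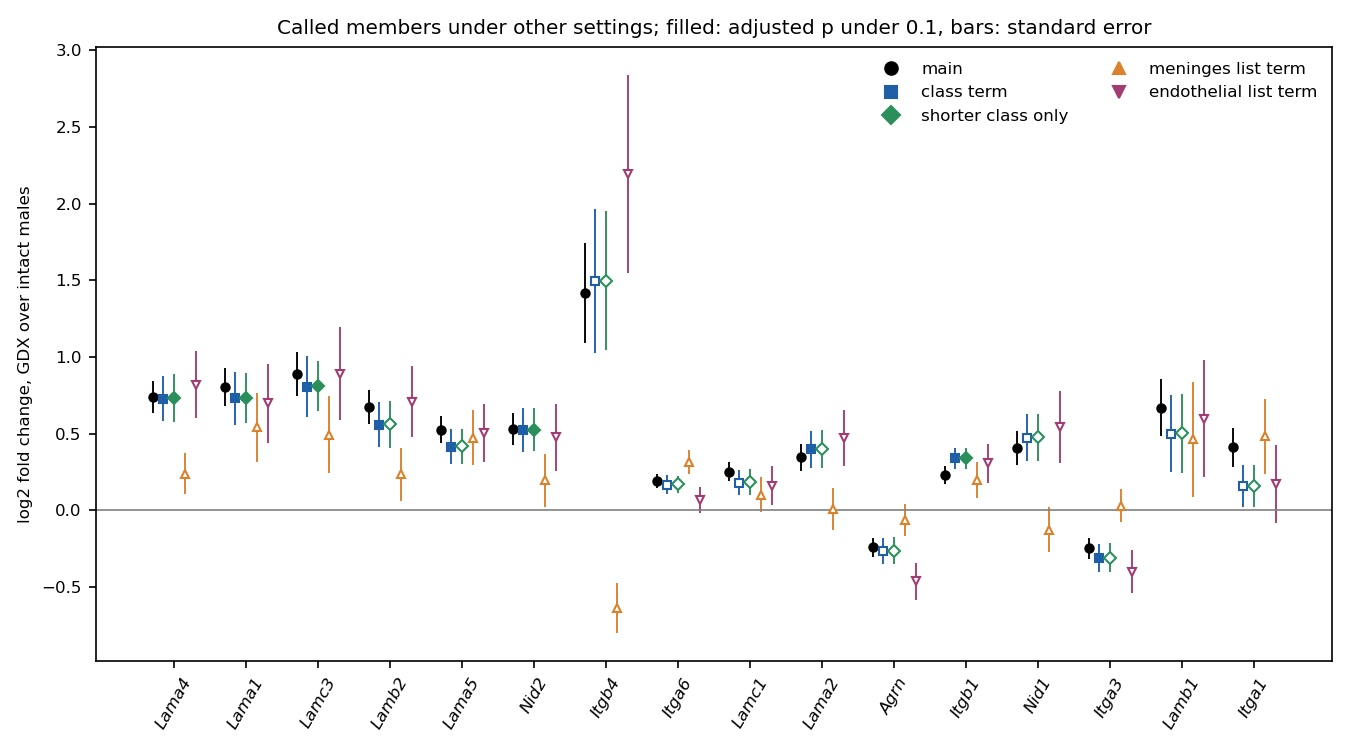
Log2 fold change ± SE, GDX against intact males, of the 16 called genes without and with the fragment class, the meninges level or the endothelial level as a term, and in the shorter class alone. With the meninges term Itgb4 goes from 1.42 to -0.64, Lama2 from 0.35 to 0.0081 and Lama4 from 0.74 to 0.24.

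The gene AABR07073181.1 (ENSRNOG00000021437), which RefSeq lists under the name Hspg2 for perlecan, the large heparan sulfate proteoglycan of basement membranes, is not counted among the 38. It was at 16.1, 20.6, 19.7, 18.5 and 14.6 CPM in intact males and at 28.0, 24.2, 25.4, 29.1 and 25.6 CPM in GDX males. The groups did not overlap, at a log2 fold change of 0.56 ± 0.09 (adjusted p of 0.00554). In females it was at 19.4, 22.8 and 27.2 CPM (lowest, median, highest) when intact and at 26.6, 31.2 and 33.2 CPM after OVX, with a narrow overlap and a log2 fold change of 0.42 ± 0.08 (adjusted p of 0.106). The difference between the responses of the sexes was 0.14 ± 0.13 (adjusted p of 0.713). It was lower in intact males than in intact females, at a log2 difference of -0.35 ± 0.10 (adjusted p of 0.0856) with overlap. Between GDX males and OVX females the log2 difference was -0.21 ± 0.07 (adjusted p of 0.338).

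In OVX females 0 of the 32 genes tested were called by edgeR and 0 by DESeq2, where 0.0335% of all 14910 genes were called by edgeR and 1.17% by DESeq2. At an unadjusted p under 0.05, 7 genes were higher and 1 was lower, beside 5.25% and 4.92% of all genes. In 0 of the 32 all OVX females lay above all intact females, against 0.315% of all genes. The median log2 fold change was 0.08 over the 32 genes and 0.0025 over all genes, and the 9 laminin chains tested all had values above 0, with a median of 0.30, 5 of them at an unadjusted p under 0.05.

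Lamc3 was at 5.30, 6.57 and 7.27 CPM (lowest, median, highest) in intact females and at 6.92, 8.21 and 8.60 CPM in OVX females. OVX rat 5 alone lay in the intact range, and the log2 fold change was 0.35 ± 0.10 (adjusted p of 0.266). Itga6 was at 99.3, 107 and 117 CPM in intact and 113, 118 and 124 CPM in OVX females, and Lama4 at 17.6, 23.9 and 27.9 CPM and 23.4, 30.0 and 34.0 CPM. Both overlapped, with log2 fold changes of 0.13 ± 0.04 (adjusted p of 0.268) and 0.31 ± 0.10 (adjusted p of 0.3). Lama1 and Itgb4, both higher in GDX males, had log2 fold changes of 0.06 and 0.09 in females.

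Beside these values, 0 of 16 meninges markers were called in females by edgeR or DESeq2, and 0 had an unadjusted p under 0.05. Their sum was between 171 and 512 CPM in intact and between 318 and 564 CPM in OVX females, and the list's mean log2 CPM differed by 0.24 (exact permutation p = 0.353, adjusted p = 0.423). With 1 rat left out this difference lay between 0.10 and 0.36. The endothelial list differed by 0.43 (exact permutation p = 0.0173, adjusted p = 0.0693), at sums between 192 and 351 CPM and between 292 and 393 CPM. For endothelial genes edgeR called 0 of 15, DESeq2 2, and 11 had an unadjusted p under 0.05. The blood leukocyte list was 0.37 higher (exact permutation p = 0.00866, adjusted p = 0.0693) and the motor neuron list differed by -0.37 (exact permutation p = 0.0173, adjusted p = 0.0693) after OVX. In the shorter class alone, with 2 intact females, the motor neuron list differed by -0.14, and with a prior count of 0.5 the blood leukocyte list was 0.60 higher.

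Other lists did not pass in females, at 0.36 for pericytes, 0.07 for microglia, -0.09 for Schwann cells, 0.07 for astrocytes, 0.04 for oligodendrocytes, 0.26 for dorsal horn neurons, 0.09 for ependymal cells and 0.00041 for Hox genes (exact permutation, adjusted p between 0.117 and 0.996).

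The interaction asks whether removal of the gonads acted differently in the sexes. It called 1 of 33 genes, Lama1, beside 0.116% of all 15562 genes in either direction and 0.09% higher. Lama1 was at 8.12, 9.72 and 11.2 CPM (lowest, median, highest) in intact females and at 8.54, 9.92 and 12.3 CPM in OVX females, so that all female values and the GDX males lay above the 5 intact males. The male response exceeded the female response by 0.76 ± 0.16 on the log2 scale (adjusted p of 0.0973). This call was lost in 15 of the 22 fits that left out 1 rat (GDX males 4, 5 and 6, intact males 1, 5 and 6, intact females 3 to 6 and OVX females 2 to 6), at adjusted p between 0.103 and 0.214, while the difference lay between 0.68 and 0.83 over the 22 fits. It was also lost with the filter at 1 CPM (0.76, adjusted p of 0.101), the fragment class as a term (0.76, adjusted p of 0.116), the shorter class alone (0.63, adjusted p of 0.427), the rat number as a block (0.77, adjusted p of 0.249) and the meninges level as a term (0.50, adjusted p of 0.881). The block fit also lacked GDX male 4 and intact male 3.

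In the interaction 7 of the 33 genes had an unadjusted p under 0.05, all higher, beside 5.92% of all genes higher and 5.71% lower. DESeq2 called 2, Lama1 and Lamb2 (0.51, adjusted p of 0.0452), beside 1.01% of all genes called higher. Further genes given here were chosen after their values were seen. By edgeR Lamb2 was at 0.51 ± 0.14 (adjusted p of 0.161), Itgb4 at 1.33 ± 0.39 (adjusted p of 0.172) and Itga10, a low-count collagen receptor subunit, at 1.97 ± 0.74 (adjusted p of 0.277). Without GDX rat 1 Itgb4 (adjusted p of 0.076) and Lamb2 (adjusted p of 0.0787) were also called, and without intact female 1 Lamb2 was (adjusted p of 0.0948). The median over the 33 genes was 0.23, against 0.0017 over all genes. Of the meninges markers 0 of 16 were called by edgeR, 5 by DESeq2, and 14 had an unadjusted p under 0.05. Of the Schwann cell markers 0 of 7 were called by edgeR or DESeq2, all 7 were above 0, with a median of 0.92, and 5 had an unadjusted p under 0.05.

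Intact males and intact females differed in 5 of 32 genes, all lower in males, beside 4.01% of all 14937 genes in either direction and 2.56% lower. Lamb2 was at 51.9, 60.9 and 67.5 CPM (lowest, median, highest) in intact females, against 34.8 to 47.7 CPM in intact males. The groups did not overlap, and the log2 difference was -0.58 ± 0.09 (adjusted p of 0.00244). Itgb4, at 36.6, 60.8 and 77.0 CPM in intact females, differed by -1.46 ± 0.22 (adjusted p of 0.00334), also without overlap. Lama1 (-0.67 ± 0.12, adjusted p of 0.0101), Lamb1 (-0.76 ± 0.14, adjusted p of 0.0135) and Lamc3 (-0.59 ± 0.15, adjusted p of 0.0482) completed the 5. In all 5 genes each intact male was below each intact female, where 1.51% of all genes were lower without overlap. The median log2 difference was -0.15 over the 32 genes and 0.0028 over all genes.

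The intact males here are the same rats as in the GDX comparison, so both rest on their values. Without intact female 3 or 4 Lamc3 was not called (adjusted p of 0.106 and 0.101). In all, 8 genes were called without intact female 1 (Nid2, Lamc1 and Lama2 added) and 8 without intact female 2 (Nid2, Lama4 and Nid1 added). Itga4 and Agrn were added without intact male 3 (adjusted p of 0.0387 and 0.0682), and Lamc1 without intact male 5 (adjusted p of 0.0966). The shares of all genes called in these fits are not given here, so the counts are not results about these genes alone. DESeq2 called 9, beside 5.49% of all genes, adding Nid2, Lama4 and Lamc1 lower and Agrn higher in males. Within the shorter class, with 2 intact rats of each sex, 0 were called, beside 0.225% of all genes, at log2 differences between -1.55 and -0.41 for the 5 genes. Within the longer class, with 3 intact males and 4 intact females, a comparison chosen after seeing the data, 4 were called, beside 2.32% of all genes, and Lamc3 (-0.67, adjusted p of 0.162) was not. With the meninges level as a term 0 were called, at log2 differences between -0.53 (Lamb1) and -0.15 (Lamc3) for the 5 genes. The share of all genes called with this term is not given here, so the 0 is not a result about these genes alone. Of the meninges markers 12 of 16 were lower in intact males, with a median log2 difference of -1.23, and of the endothelial markers 1 of 15 was. Of the Schwann cell markers 3 of 7 were lower and all 7 were below 0, with a median of -0.77, at sums between 64.8 and 116 CPM in intact males and between 106 and 172 CPM in intact females. Of the microglia and macrophage markers 3 of 13 were lower (Cd163, Mrc1 and C1qc), while 5 were above 0, the median was -0.06, and at an unadjusted p under 0.05 there were 3 higher and 5 lower. With the rat number as a block, in a fit that also lacked intact female 4, Lamc3 was not called (adjusted p of 0.175) and Lamc1 was (adjusted p of 0.0913). The part of these markers in the difference between the sexes was not tested.

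GDX males and OVX females, all of the shorter class, differed in 0 of 32 genes by edgeR and in 0 by DESeq2, where 0.232% of all 15084 genes were called by edgeR and 0.862% by DESeq2. At an unadjusted p under 0.05 there were 3 genes, beside 9.37% of all genes. Itgb1 lay between 138 and 161 CPM in GDX males and between 121 and 147 CPM in OVX females, at a log2 difference of 0.16 ± 0.05 (adjusted p of 0.358). Lamb1 was at -0.40 ± 0.16 (adjusted p of 0.443) and Itgav, the alpha subunit of vitronectin receptors, at 0.13 ± 0.06 (adjusted p of 0.483), and both overlapped. The median was -0.02, against -0.00028 over all genes.

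The wider set of matrix and adhesion genes, 102 of 103 listed, was followed with the same test. In GDX males 26 of 94 tested rose and 2 fell, beside 6.78% of all genes higher and 6.58% lower, with a median log2 fold change of 0.12. Those that rose were 9 of 15 integrin ligands outside the laminins, 3 of 8 basement membrane collagens, 3 of 17 other basement membrane components, 4 of 20 other receptors of laminin, perlecan and agrin, and 7 of 34 genes of the integrin adhesome, where 2 others fell. The difference between these lists was not tested. The median over all genes tested was 0.0021.

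Fn1 (fibronectin, the ligand of several RGD-binding integrins) went from 45.4 ± 6.58 to 113 ± 39.0 CPM (mean ± SD, n = 5), a log2 fold change of 1.31 ± 0.19 with an edgeR adjusted p of 0.00346. Col18a1, a basement membrane collagen that is the source of endostatin, rose by 0.92 ± 0.15 (adjusted p of 0.00554), and Fbln1, a fibulin that binds laminin and nidogen, by 0.97 ± 0.17 (adjusted p of 0.00678). Flna, an actin crosslinker that binds integrin tails, rose by 0.62 ± 0.10 (adjusted p of 0.00554) and Tnc, the matrix protein tenascin C, by 0.49 ± 0.08 (adjusted p of 0.00607). Dst, a cytoskeletal linker that binds Itgb4 at hemidesmosomes, had a log2 fold change of -0.14 ± 0.04 (adjusted p of 0.0612). Ptk2b, a kinase related to focal adhesion kinase, was at -0.22 ± 0.08 (adjusted p of 0.0943).

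In females edgeR called 0 of 95 of these genes and DESeq2 4 higher, beside 0.617% of all genes. At an unadjusted p under 0.05, 16 were higher and 3 lower, beside 5.25% and 4.92% of all genes. The interaction called 0 of 95 by edgeR and 2 higher by DESeq2, beside 1.01% of all genes, with 18 higher and 1 lower at an unadjusted p under 0.05, beside 5.92% and 5.71%. In intact males 7 of 95 were lower than in intact females, beside 2.56% of all genes, Fn1 among them at -1.10, and 1 was higher, beside 1.45%, Dst at 0.11. By DESeq2 12 were lower and 2 higher there, beside 5.49% of all genes in either direction. Between GDX males and OVX females edgeR called 0 of 95 and DESeq2 3, beside 0.862% of all genes, and 9 had an unadjusted p under 0.05, a share near the 9.37% of all genes.

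**Figure D5:**
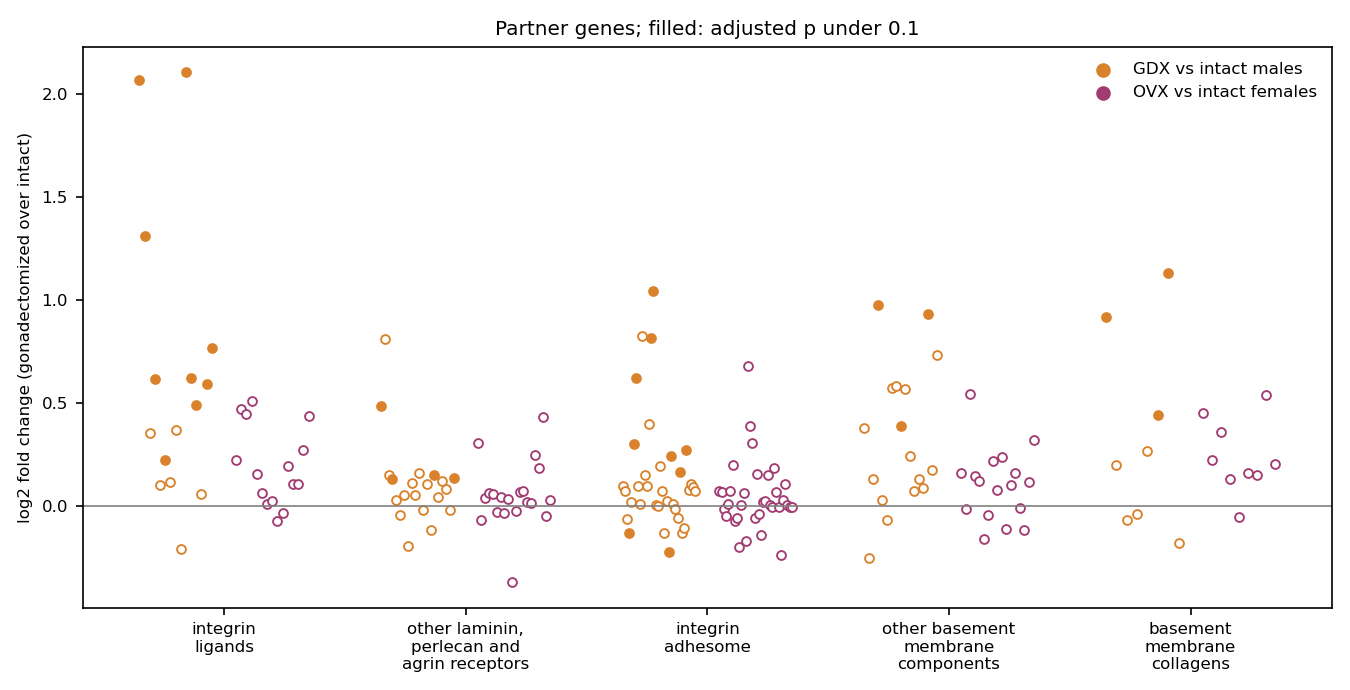
Log2 fold change of each of the other matrix and adhesion genes tested, in 5 lists, for GDX against intact males (orange) and OVX against intact females (purple), with filled points for an adjusted p under 0.1. Filled points are in males alone, 26 above and 2 below 0.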

How the data were processed

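RNA of ventral cervical spinal cord was sequenced in 22 rats. The authors trimmed the reads, mapped them to Rnor_6.0 and deposited raw counts per Ensembl gene from Subread featureCounts. The methods name Hisat2 and the submitters' processing notes TopHat2 2.0.13, and strand and multi-mapping options are not given in the sources used here. For library preparation the methods name a SMARTer stranded kit and the submitters' labels Illumina TruSeq. Whether the 2 fragment classes were prepared in separate batches is not given there either.

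Fits were made in R 4.3.3 by edgeR 4.0.16, with filterByExpr, TMM factors, glmQLFit, glmQLFTest and Benjamini-Hochberg adjustment over all genes tested, called under 0.1. The interaction used all 22 rats with 4 group means. Marker lists were compared as mean log2 CPM (prior count 2) per rat by exact permutation tests, two-sided, adjusted over 12 lists. Where a symbol had several entries, that with the most reads was used. Relations within groups used 100000 permutations of rats within groups, two-sided, adjusted over 165. The members and lists were chosen with earlier results of these data known.

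Other settings tried were RLE factors, DESeq2 1.42.0, a filter at 1 CPM or none, the fragment class as a term, the shorter class alone, for intact rats the longer class alone, a single fit of all 22 rats, a block for the rat number, the meninges or endothelial level as a term, a prior count of 0.5 and each rat left out. Full statistics are given for up to 10 called genes per direction and comparison, or for 3 with the smallest p where none was called, with Itgb1, Nid1, Lamb1 and Itga1 beyond the 10 in males, and values per rat for those called under 0.01 and some others chosen after their values were seen. Of the wider genes the 5 lowest in adjusted p per direction are named. The values of 1 member are not reported here. The pipeline was tested on simulated data.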

Additional observations from a re-analysis of the deposited data

Results flagged for a closer look

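Groups of 5 or 6 rats were searched for a single value far from the others, by the gap to its nearest neighbour as a share of the group's range (Dixon's test at 95%). Of 72 groups searched 5 held such a value, and chance alone gives about 1 in 20 groups. Lamc3, a laminin gamma chain, was at 2.89 CPM in intact male 6, below the other intact males at 4.28 to 4.68 CPM, and at 6.92 CPM in OVX female 5, below the other OVX females at 8.04 to 8.60 CPM. Lama5 was at 10.4 CPM in GDX male 5, below the others at 11.0 to 11.2 CPM. Itgb1 was at 126 CPM in intact female 1, below the others at 135 to 139 CPM, and Itgav at 141 CPM in OVX female 5, below the others at 169 to 185 CPM.

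Lama1 differed between the sexes in its response to removal of the gonads, by 0.76 on the log2 scale in the test of the interaction (edgeR adjusted p of 0.0973), with a response of 0.81 in males and 0.06 in females. The call was lost in 15 of the 22 fits that left out 1 rat, over which the difference lay between 0.68 and 0.83. It was also lost with the filter at 1 CPM (0.76, adjusted p of 0.101), the fragment class term (0.76, adjusted p of 0.116), the shorter class alone (0.63, adjusted p of 0.427), the rat number as a block (0.77, adjusted p of 0.249) and the meninges term (0.50, adjusted p of 0.881). The block fit also lacked GDX male 4 and intact male 3.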

How the results depend on the processing

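Across alternatives the named log2 fold changes kept their direction and side of the threshold in 488 comparisons with the reported value, kept the direction and lost the call in 93, and reversed in 3. The 488 include fits with 1 rat left out. They also include genes not called as reported that stayed so, Lamc3, Itga6 and Lama4 in OVX females and Itgb1, Lamb1 and Itgav between GDX males and OVX females. The 488 are thus not a measure of how well the calls hold. In GDX against intact males 16 genes were called, and between 15 and 16 with 1 rat left out. The count was 9 with the fragment class as a term, 5 in the shorter class alone, which leaves 2 intact males, 0 with the meninges level as a term and 0 with the endothelial level as a term. The endothelial term, and the longer class alone for the intact rats, were chosen after seeing the data. With the meninges term Itgb4 (-0.64), Nid1 (-0.13) and Itga3 (0.031) reversed, and the cause was not tested. With the rat number as a block, which assumes that equal numbers are paired, 12 genes were called in males, 0 in females, 0 in the interaction, 5 between intact males and females and 0 between GDX males and OVX females. Rats without an equal number in the other group were left out, GDX male 4 and intact male 3 in males and in the interaction. Intact female 4 was left out between intact males and females, and OVX female 3 between GDX males and OVX females. Equal numbers showed no sign of pairing, with correlations between -0.115 and 0.0629.

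In OVX against intact females, and in GDX males against OVX females, 0 genes were called in each alternative run, with 1 rat left out as well. The interaction, with 1 call, gave 2 with DESeq2, 0 with the filter at 1 CPM, 0 with the class term, 0 in the shorter class, 0 with the block and 0 with the meninges term, and 0 to 3 with 1 rat left out. Between intact males and females, with 5 calls, DESeq2 gave 9, no filter 7, the endothelial term 7, all 22 rats in one fit 6, the shorter class 0 and the meninges term 0, leaving out 1 rat gave 4 to 8, and the longer class 4. The causes were not tested. Where a fit's share of all genes called is not given above, its count is not a result about these genes alone.

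Marker lists were compared at an unadjusted exact p under 0.05. In the shorter class, with 2 intact rats per sex, the smallest p of this test, which doubles the smaller tail, is 0.0952 in males and 0.0714 in females, so no list could pass. The male differences were 1.38 for meninges, 0.37 for endothelial, 0.13 for pericyte, 0.20 for microglia, 0.68 for blood leukocyte, 0.093 for astrocyte and 0.077 for oligodendrocyte markers there. The female differences were 0.58 for endothelial, 0.28 for blood leukocyte, 0.14 for astrocyte and -0.14 for motor neuron markers. Reversed there were motor neuron (0.06) and ependymal markers (-0.068) in males and Schwann cell (0.0081) and dorsal horn markers (-0.15) in females. With a prior count of 0.5 the pericyte list was at 0.39 in males, no longer passing, and at 0.44 in females, now passing.

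With 1 rat left out the male differences were 0.28 to 0.40 for pericyte (not passing without GDX males 1, 2 or 4 or intact males 1, 3 or 6), 0.049 to 0.084 for oligodendrocyte (not passing without GDX males 1, 4 or 5 or intact males 1, 2 or 3), 0.56 to 0.97 for Schwann cell (passing without intact male 3) and -0.0131 to 0.27 for ependymal markers (reversed without intact male 6). Those of motor neuron markers lay between -0.24 and -0.055 and those of dorsal horn markers between 0.043 and 0.25. The female differences were 0.26 to 0.45 for pericyte markers, passing without intact females 3 or 5 or OVX females 3 or 5. Astrocyte markers, which passed here with all rats (exact permutation p = 0.039), were at 0.033 to 0.076. They did not pass without intact females 1, 3, 4 or 6 or OVX females 1, 2, 3 or 6. Oligodendrocyte markers were at 0.029 to 0.056 (passing without OVX female 4). Schwann cell markers were at -0.15 to 0.0047 (reversed without intact female 5) and Hox genes at -0.027 to 0.091.

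The fragment class, the meninges markers and the endothelial markers differ between intact and gonadectomized males, so none of the 3 terms is free of the groups. Between 12371756 and 17571887 reads were spread over all genes, which left 7 of the 38 genes below the filter in males, and these were not tested in the male comparison as reported. Reads carry no molecular identifiers, so p describes the spread between rats.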
